A study of Mus musculus with 7 samples.

Results

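The regions described here are the open chromatin at 9 mouse genes of the YAP pathway and of the fetal-like state that intestinal epithelium can enter after injury. They are Yap1, Wwtr1, Tead1, Ccn1, Ccn2, Ankrd1, Ly6a, Anxa1 and Clu. A peak belonged to this group if its summit lay in the body of one of these genes, or if the nearest protein-coding gene within 50 kb was one of them. This gave 412 of 531679 peaks. Peaks sharing at least 1 bp between libraries were merged, which gave 81 of 103809 regions.

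The peaks come from Omni-ATAC-seq, in which the Tn5 transposase cuts and tags open DNA, on Lgr5+ intestinal stem cells sorted by their GFP reporter. Allo recipients (4 libraries) were B6-GFP-Lgr5 mice given an allogeneic bone marrow transplant from BALB/c donors, a mismatch that can lead to graft-versus-host disease, and Syn recipients (3 libraries) were B6-GFP-Lgr5 mice given a syngeneic transplant. All recipients, Syn included, were lethally irradiated females of 8 to 12 weeks studied 7 days after transplantation, so neither group shows unirradiated crypts. A library held 50000 sorted cells from a pool of 3 to 4 mice, and the comparison asks how stem cell chromatin differs between recipient types.

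YAP (gene Yap1) and TAZ (gene Wwtr1) are transcriptional coactivators that the kinases of the Hippo pathway hold in the cytoplasm. In the nucleus they bind DNA through TEAD proteins, often beside AP-1, and switch on genes such as Ccn1, Ccn2 and Ankrd1. After irradiation or inflammation, crypt cells with high YAP activity can lose stem cell markers and express fetal genes such as Ly6a (Sca-1) and Anxa1, and Clu marks rare reserve cells that depend on YAP. The pools held cells sorted for the Lgr5 reporter, so cells that had lost its signal lie outside these libraries.

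The lists held 62977, 76091, 88861 and 81719 peaks in Allo 1 to 4 and 71925, 73668 and 76438 in Syn 1 to 3. The number of reads behind them is unknown. Allo 3 and Allo 4 hold the most peaks and name their peaks by a different scheme. Whether one peak-calling setting served for all 7 was not given in the sources used here. At the 9 genes, peaks numbered 49, 59, 65 and 62 in Allo 1 to 4 and 59, 55 and 63 in Syn 1 to 3. Of 6 intestinal stem cell markers, 5 (Lgr5, Olfm4, Ascl2, Smoc2 and Sox9) had a peak within 1 kb of a gene end in all 7 libraries, and Axin2 in none. None of 5 T cell markers had such a peak.

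Promoter sequences are shown first, because the cover of start sites by peaks is given below for these same bases. RefSeq start sites (GRCm38.p6, the build also called mm10) were at hand for 5 of the 9 genes, all on the minus strand. The 250 bases before the start site, 5′ to 3′, lie at chr9:8004597-8004846 for Yap1, chr3:57575911-57576160 for Wwtr1, chr3:145649986-145650235 for Ccn1, chr19:36119845-36120094 for Ankrd1 and chr19:20390672-20390921 for Anxa1. Capitals mark GGAATG or its reverse complement CATTCC, the core of the TEAD motif.
Yap1: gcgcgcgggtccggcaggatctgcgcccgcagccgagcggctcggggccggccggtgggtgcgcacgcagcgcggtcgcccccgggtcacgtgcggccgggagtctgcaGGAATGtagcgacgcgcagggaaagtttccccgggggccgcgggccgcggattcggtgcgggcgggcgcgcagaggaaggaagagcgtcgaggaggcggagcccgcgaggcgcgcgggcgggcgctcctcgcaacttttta
Wwtr1: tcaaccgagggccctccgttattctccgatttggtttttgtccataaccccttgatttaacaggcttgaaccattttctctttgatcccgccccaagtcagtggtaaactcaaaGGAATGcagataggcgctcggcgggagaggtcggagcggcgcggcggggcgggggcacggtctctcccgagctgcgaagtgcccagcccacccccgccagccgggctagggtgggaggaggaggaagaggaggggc
Ccn1: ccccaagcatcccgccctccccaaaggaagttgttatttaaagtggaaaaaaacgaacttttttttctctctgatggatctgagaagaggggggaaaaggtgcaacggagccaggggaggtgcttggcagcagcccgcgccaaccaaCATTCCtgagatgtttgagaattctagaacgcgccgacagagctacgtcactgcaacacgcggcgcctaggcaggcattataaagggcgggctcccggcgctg
Ankrd1: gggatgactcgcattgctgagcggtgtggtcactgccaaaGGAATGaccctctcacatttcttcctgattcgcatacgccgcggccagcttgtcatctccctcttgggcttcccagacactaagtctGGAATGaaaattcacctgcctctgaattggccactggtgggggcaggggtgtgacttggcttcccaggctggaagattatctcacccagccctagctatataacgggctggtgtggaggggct
Anxa1: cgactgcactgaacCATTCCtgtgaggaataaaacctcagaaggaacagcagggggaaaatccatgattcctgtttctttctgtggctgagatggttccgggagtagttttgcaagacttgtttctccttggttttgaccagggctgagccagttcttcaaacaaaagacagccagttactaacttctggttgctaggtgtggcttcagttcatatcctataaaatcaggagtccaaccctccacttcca

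Each of these promoters held a TEAD core on 1 of the strands, a match of letters and not a measured site. Counted from the start site, with -1 the base before it, the core began at -141 in Yap1, -136 in Wwtr1, -103 in Ccn1, -236 in Anxa1, and at -210 and -123 in Ankrd1. Of all 32851 RefSeq promoter windows of this length, 12.6% held it. The AP-1 motif TGANTCA, searched on both strands, was in none of the 6 windows of these 5 genes (Wwtr1 has a pair that overlap), and in 6.75% of all windows.

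Promoters with a TEAD core stood both inside and outside peaks. All 250 bases lay inside a peak in all 7 libraries at Yap1 and Wwtr1. At Ccn1, peaks covered 201, 218, 233 and 250 of the bases in Allo 1 to 4, against 218, 229 and 242 in Syn 1 to 3. At Anxa1 a peak covered 208 bases in Syn 3 and none in the other 6 libraries, and at Ankrd1 no library had a peak over the promoter.

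For each region, the measure compared was the rank percentile of the authors' −log10 q of its best peak within its library, where 100 is the strongest peak. Ranks depend on list length: the median percentile of regions open in all 7 libraries was 59.4, 66.5, 71.2 and 68.9 in Allo 1 to 4 and 64.7, 65.6 and 66.8 in Syn 1 to 3. Each difference was therefore also computed from ranks among the regions open in all libraries, whose number is the same in each library. The median difference of all shared regions was 0.437 points by whole lists and 0.153 points by these ranks. Regions are numbered by coordinate within each gene.

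**Figure D1:**
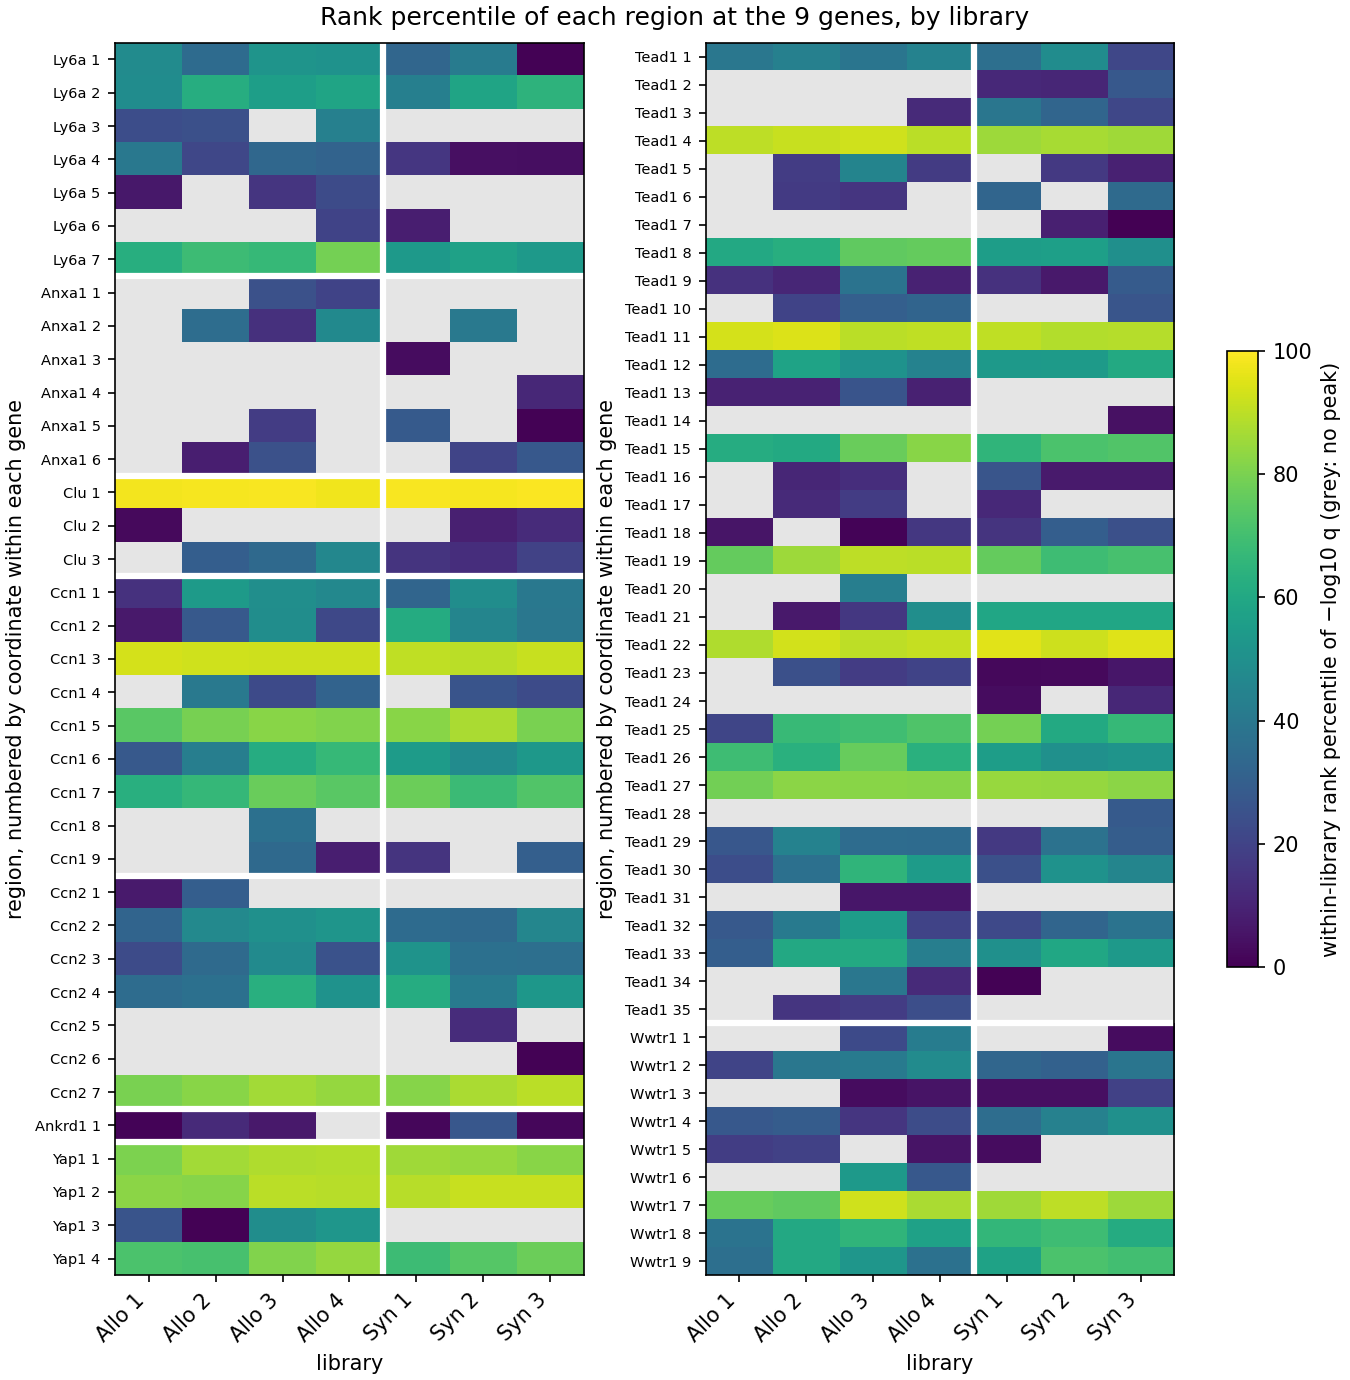
Within-library rank percentile (colour, 0 to 100) of each of the 81 regions (rows, numbered by coordinate within each gene) in the 4 Allo and 3 Syn libraries (columns); grey marks no peak. Clu region 1 is near the top of each list, Anxa1 and Ankrd1 have no region open in all 7 libraries, and Tead1 holds 35 of the 81 regions.

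The 9 genes were open to very different degrees. Of the 81 regions, 39 (48.1%) were open in all 7 libraries, 34 in 2 to 6 and 8 in 1, beside 48.5% of all merged regions open in all 7. Yap1, Wwtr1, Tead1, Ccn1, Ccn2, Clu and Ly6a each had a region open in all 7 libraries within 1 kb of the start site or, where no start site was at hand, of a gene end. Anxa1, which encodes a phospholipid-binding protein of inflammation and repair, had none, and Ankrd1, which encodes a nuclear ankyrin-repeat protein, had no peak within 1 kb of its start site.

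Regions that separated the recipient types were few. Open in all 4 Allo and no Syn libraries (Allo-only) were 2 of 81 regions, Yap1 region 3 and Tead1 region 13, where 1.14% of all merged regions had this pattern. Open in all 3 Syn and no Allo libraries (Syn-only) was 1 region, Tead1 region 2, where 1.01% of all did. Both Allo-only regions were lost when a −log10 q of at least 5 was required or when lists were brought to equal length (0 in each). Of all regions, 1.12% and 1.16% were Allo-only in these settings. The Syn-only count was 1 in both settings (1.01% and 1.43% of all), but not of the same region. Tead1 region 2 met a −log10 q of 5, with 5.17, 5.26 and 9.07 in Syn 1 to 3. With lists of equal length its peaks in Syn 1 and Syn 2 (percentiles 11.6 and 10.9) were cut off, and the count was of another region.

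Among the 39 regions open in all libraries, the rank percentile was higher in each Allo than in each Syn library at 6 and lower in each Allo library at 2. Over all 50324 such regions the shares were 8.06% and 6.58%. By limma across all of them, with Benjamini-Hochberg adjustment at 0.05, none of the 39 passed in either direction, where 0.36% of all were called higher and 0.101% lower. At an unadjusted limma p under 0.05 there were 7 higher and 5 lower (8.53% and 6.88% of all), and at an exact permutation p under 0.05 there were 3 higher and 1 lower (4.56% and 2.22% of all). By ranks among shared regions, 6 were higher and 3 lower in each Allo library (8.41% and 8.86% of all). The median difference, Allo minus Syn, was 0.674 percentile points over the 39 and 0.437 over all.

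Leaving out libraries moved these counts. Without Allo 1, 12 regions were higher in each Allo library (16.1% of all), and without Allo 1 and 2 there were 17 (33.8% of all). Without Allo 3 and 4, 12 were lower in each Allo library (20.1% of all). Lower in each Allo library were also 6 without Allo 3 (9.78% of all), 5 without Allo 2 (11.6% of all) and 5 without Syn 1 (10% of all). The Syn-only count was 2 without Allo 4 (1.31% of all), without Syn 1 (1.73%) or without Syn 2 (1.57%). The 39 regions that were neither open in all libraries nor open in 1 recipient type in full had percentiles between 0.131 and 59.3.

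**Figure D2:**
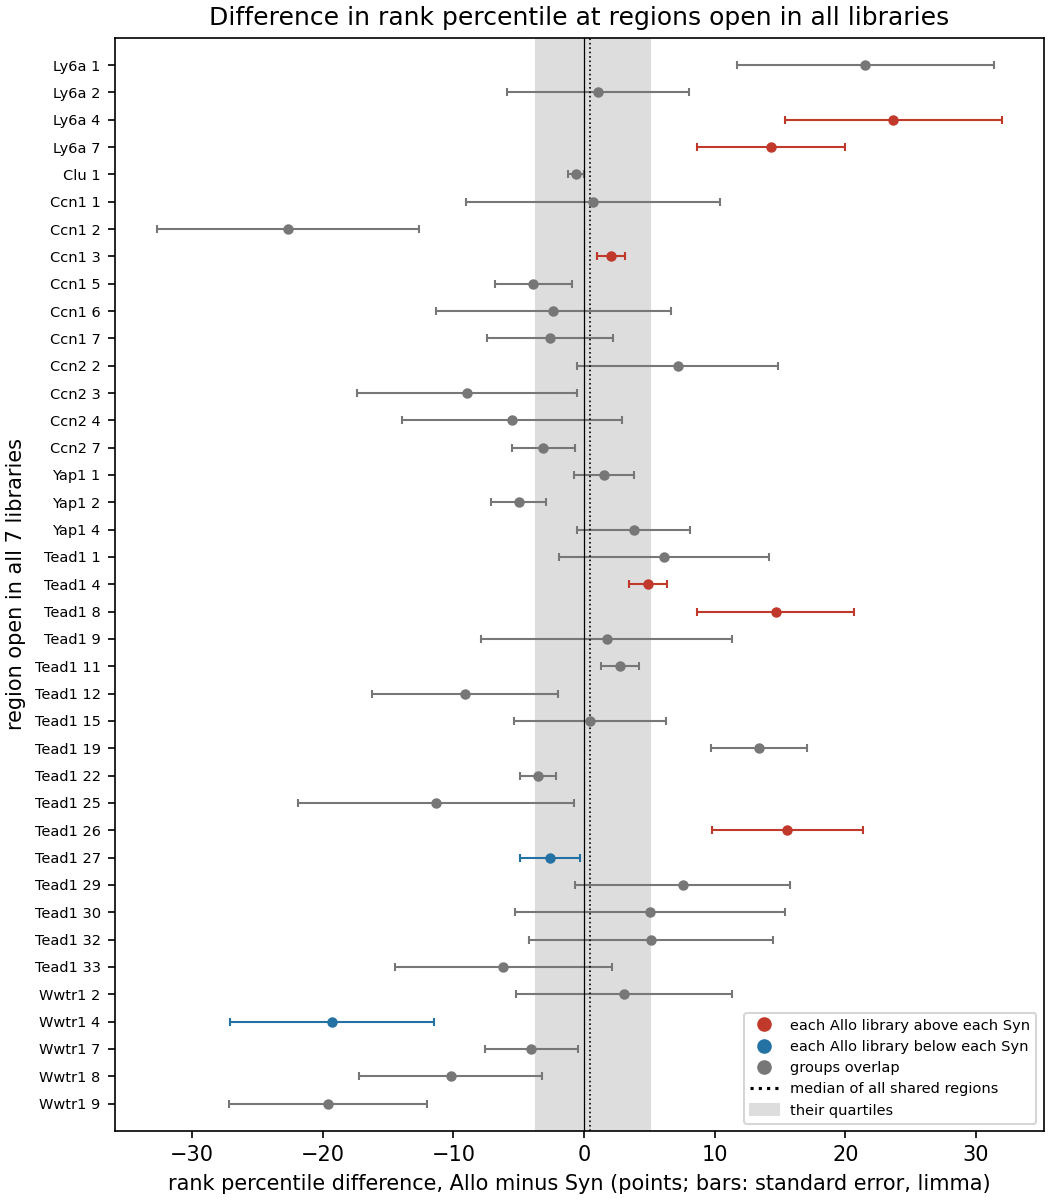
Rank percentile difference, Allo minus Syn (points, limma estimate with standard error), at the 39 regions open in all 7 libraries; the dotted line and band give the median and quartiles of all 50324 such regions. Ly6a region 4 is the farthest to the right at 23.7 points, and Ccn1 region 2 the farthest to the left at -22.6 points, with overlapping groups.

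Yap1 encodes YAP, and its locus on chromosome 9 (7931999 to 8004638) had 4 regions in each Allo library and 3 in each Syn library. This is a difference of 1 region (two-sided exact permutation p = 0.0286, the smallest that n = 4 and 3 allow, and 1 after adjustment over all 17295 genes with a region). Counts of regions were higher in each Allo library for 2.17% of those genes and lower for 1.35%. The added region was region 3 (7995207 to 7996118), in the gene body with its summit 8850 bp inside the start site. Its percentile was 26.1, 0.545, 49.1 and 52.7 in Allo 1 to 4, and no Syn library had a peak there. Allo 3 and 4 held this region at mid rank, whereas Allo 2 held it near the bottom of its list, with a −log10 q of 2.30. The difference of 1 region was the same with each library left out in turn, and without Allo 1 and 2 or Allo 3 and 4. It was 0.75 with a −log10 q of at least 5 and with lists of equal length, and 0.50 when peaks had to cover 50% of a region.

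The other Yap1 regions were high in rank and overlapped between recipient types. The start site region (region 4, 8003227 to 8005091) stood at the 71.5, 70.8, 80.9 and 84.4 percentile in Allo 1 to 4, against 68.4, 73.5 and 77.4 in Syn 1 to 3. The difference was 3.79 points with a standard error of 4.32 (limma adjusted p = 0.734), and it turned to -1.95 without Allo 3 and 4. It was 1.31 without Allo 4, 1.45 without Syn 1, 2.45 without Allo 3, and 5.81 and 5.95 without Allo 2 and without Syn 3. Region 2 (7967863 to 7968631), deep in the gene body, had 82.5, 82.0, 89.7 and 89.3 in Allo 1 to 4, against 89.4, 91.5 and 91.7 in Syn 1 to 3. Allo 1, 2 and 4 lay below each Syn library and Allo 3 was inside the Syn range. The difference of -5.00 points had a standard error of 2.11 (limma adjusted p = 0.277). Region 1, 17324 bp beyond the gene (7913967 to 7915018), had 80.1, 86.0, 88.1 and 88.4 in Allo 1 to 4, against 85.6, 84.6 and 82.3 in Syn 1 to 3.

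Wwtr1 encodes TAZ and lies on chromosome 3 (57455644 to 57575910), with 6, 6, 7 and 9 regions in Allo 1 to 4, against 7, 6 and 6 in Syn 1 to 3. At its start site (region 7, 57574870 to 57576833) the percentile was 76.8, 75.6, 92.7 and 87.1 in Allo 1 to 4, against 85.9, 89.8 and 85.5 in Syn 1 to 3. Allo 1 and 2 were below the Syn libraries and Allo 3 was above them, so the groups overlapped and the difference of -4.03 points (standard error 3.55, limma adjusted p = 0.637) turned to 2.82 without Allo 1 and 2. It was -1.54 without Allo 2, -1.95 without Allo 1, -2.65 without Syn 2 and -7.24 without Allo 3.

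Of the 5 Wwtr1 regions open in all libraries, 4 had a lower mean percentile in Allo, where 45.9% of all shared regions did. Region 4 (57474449 to 57474790), in the gene body, had 27.7, 29.0, 15.5 and 23.0 in Allo 1 to 4, against 35.6, 43.8 and 50.01 in Syn 1 to 3. Each Allo library was below each Syn library, with a difference of -19.3 points (standard error 7.79, limma adjusted p = 0.256, exact permutation p = 0.0286) and of -13.8 by ranks among shared regions. Region 9 (57603573 to 57604499), 28105 bp beyond the gene, had 36.5, 60.4, 52.5 and 37.3 in Allo 1 to 4, against 57.5, 71.8 and 69.7 in Syn 1 to 3. Here Allo 2 overlapped Syn 1, and the difference of -19.6 points had a standard error of 7.55 (limma adjusted p = 0.238). Region 6 of the gene body (57555572 to 57555944) was open only in Allo 3 and Allo 4, at 54.3 and 27.7.

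Tead1 encodes a DNA-binding partner of YAP and TAZ, and its locus on chromosome 7 (112679356 to 112906784) held 35 of the 81 regions, 29 of them in the gene body. Open regions numbered 18, 25, 29 and 26 in Allo 1 to 4, against 26, 24 and 29 in Syn 1 to 3. Allo 1, the shortest list, had the fewest. Of its 16 regions open in all libraries, 11 had a higher mean percentile in Allo, where 54.1% of all shared regions did.

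The region at the lower-coordinate end of Tead1 (region 4, 112678413 to 112680203) was higher in each Allo library. It had 89.9, 91.6, 92.6 and 89.5 in Allo 1 to 4, against 85.5, 86.7 and 85.9 in Syn 1 to 3. Mean and SD were 90.9 ± 1.45 over the Allo libraries (n = 4) and 86.0 ± 0.62 over the Syn libraries (n = 3), a difference of 4.89 points with a 95% interval of 1.79 to 7.99. It missed the threshold over all regions (limma adjusted p = 0.137, exact permutation p = 0.0286). With libraries left out the difference stayed between 4.33 and 5.36 points (limma adjusted p between 0.0646 and 0.364).

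Within the Tead1 body, regions 8 and 26 were also higher in each Allo library. Region 26 (112823692 to 112824105) had 68.9, 63.4, 76.8 and 63.3 in Allo 1 to 4, against 55.6, 50.1 and 51.9 in Syn 1 to 3. The difference was 15.6 points with a standard error of 5.79 (limma adjusted p = 0.224, exact permutation p = 0.0286). Region 8 (112691044 to 112692003) had 60.5, 62.7, 75.4 and 76.3 in Allo 1 to 4, against 55.6, 56.6 and 49.9 in Syn 1 to 3. Its difference of 14.7 points (standard error 6.04, limma adjusted p = 0.266) was 7.51 without Allo 3 and 4 and reached 21.8 without Allo 1 and 2, where it passed the threshold (limma adjusted p = 0.0253), as did 8.68% of all regions in that direction.

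Region 19 of Tead1 (112760343 to 112761327) was the 1 region among the 39 that passed when ranks were taken among shared regions, and it is named here after its values were seen. It had 76.3, 85.4, 90.1 and 89.6 in Allo 1 to 4, against 76.3, 68.9 and 70.7 in Syn 1 to 3. Allo 2, 3 and 4 were above each Syn library, and Allo 1 was level with Syn 1. By percentiles of whole lists the difference was 13.4 points (standard error 3.66, limma adjusted p = 0.114). By ranks among shared regions it was 19.6 points (limma adjusted p = 0.0339, where 1.33% of all regions were called higher and 1.57% lower). With lists of equal length it was 15.8 points (limma adjusted p = 0.0449, with 0.931% of all called higher), and without Allo 1 it was 16.4 points (limma adjusted p = 0.0275, with 0.865% of all called higher).

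Other Tead1 regions went the opposite way or were open in 1 recipient type. Region 27 (112825189 to 112826982) had 78.6, 82.4, 82.2 and 81.7 in Allo 1 to 4, against 84.8, 84.3 and 82.5 in Syn 1 to 3, lower in each Allo library by a small -2.64 points (standard error 2.29, limma adjusted p = 0.630) and by -6.94 points by ranks of the fold. Region 22 (112788078 to 112789036), the highest ranked of the gene over the 7 libraries, had 88.2, 93.3, 90.1 and 91.3 in Allo 1 to 4, against 95.3, 92.3 and 95.2 in Syn 1 to 3. Over the Allo libraries alone, region 11 had a higher mean (92.1) and region 4 too (90.9) than region 22 (90.7). Its difference of -3.54 points (standard error 1.36, limma adjusted p = 0.236) turned to 0.38 when peaks were ranked by fold.

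The regions of Tead1 that separated the types in full had low ranks. Allo-only region 13 (112711559 to 112712283, in the gene body) had 9.65, 9.73, 25.9 and 9.24 in Allo 1 to 4. Syn-only region 2 (112656173 to 112656534, 23046 bp below the gene) had 11.6, 10.9 and 27.4 in Syn 1 to 3. Region 21 (112780876 to 112781390), again chosen after its values were seen, was open at 59.1, 59.1 and 59.3 in Syn 1 to 3 and at 6.85, 16.3 and 49.5 in Allo 2 to 4, with no peak in Allo 1. Region 23, chosen in the same way, went in the other direction, at 24.5, 17.7 and 20.1 in Allo 2 to 4, against 2.10, 2.42 and 6.16 in Syn 1 to 3.

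**Figure D3:**
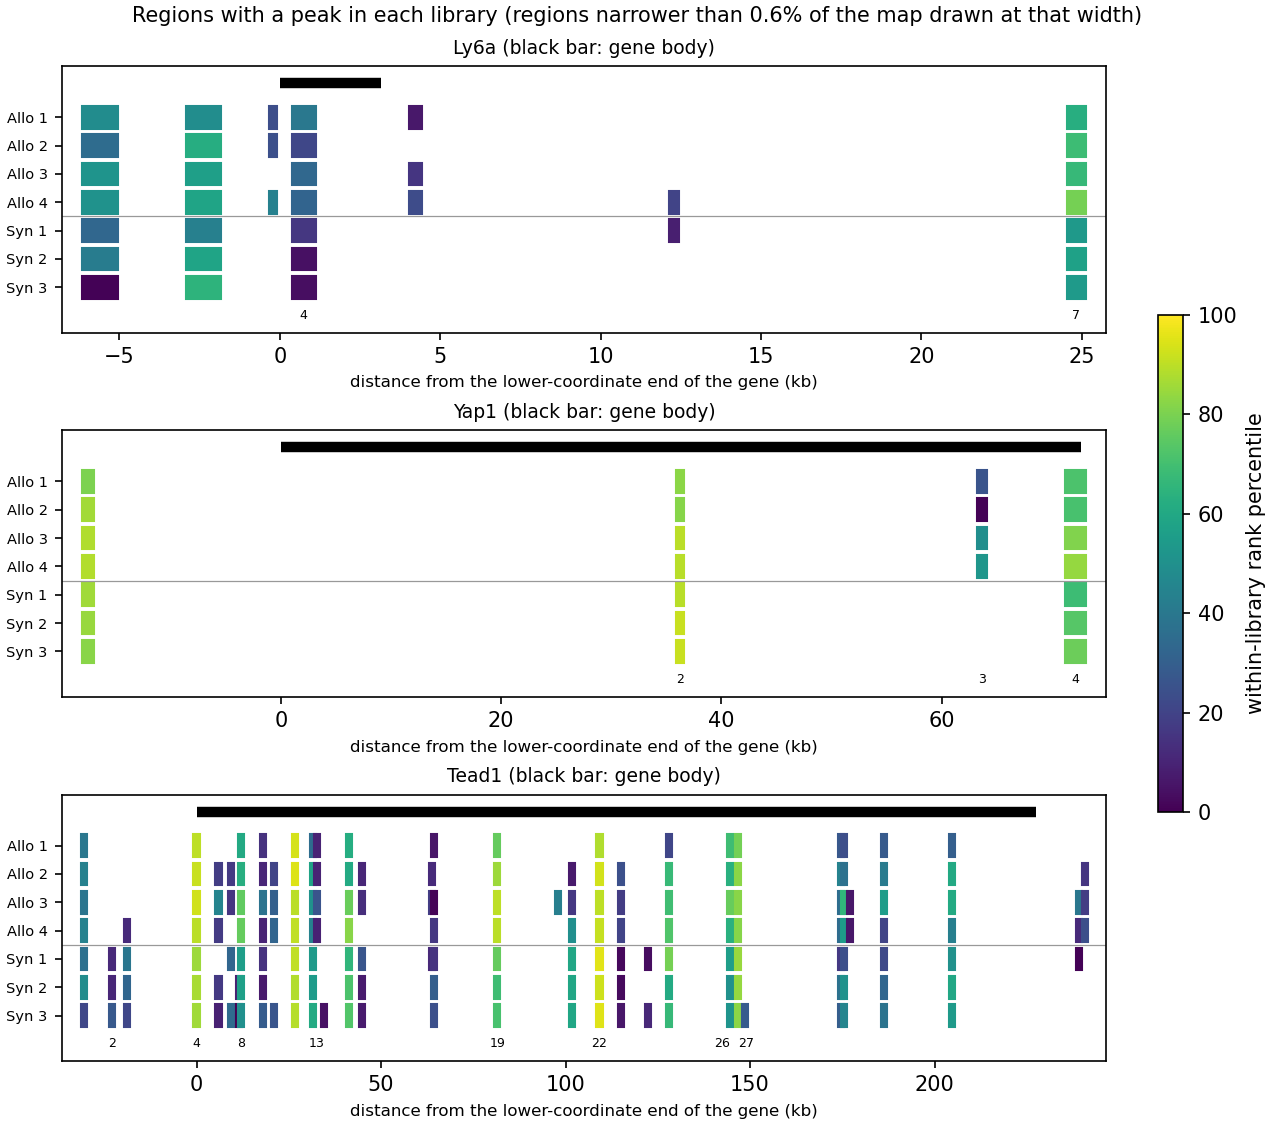
Regions with a peak in each library (rows) along Ly6a, Yap1 and Tead1, by distance from the lower-coordinate end of the gene (kb). Colour gives the within-library rank percentile and the black bar the gene body. Numbers mark a part of the regions named in the text, and Ly6a regions 3 and 5 carry none. Yap1 region 3 appears in the 4 Allo rows, and at Ly6a regions on both sides of the gene appear in Allo rows and in no Syn row.

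Ccn1 and Ccn2 encode secreted matricellular proteins and are textbook YAP targets. Neither had an Allo-only or Syn-only region. Ccn1 on chromosome 3 (145646971 to 145649985) had 6, 7, 9 and 8 regions in Allo 1 to 4, against 7, 7 and 8 in Syn 1 to 3. Ccn2 on chromosome 10 (24595442 to 24598683) had 5, 5, 4 and 4 in Allo 1 to 4, against 4, 5 and 5 in Syn 1 to 3.

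The Ccn1 start site (region 5, 145649239 to 145650238), over the promoter printed above, had 74.2, 79.4, 82.4 and 81.1 in Allo 1 to 4, against 82.0, 87.4 and 80.0 in Syn 1 to 3. The groups overlapped, with a difference of -3.87 points and a 95% interval that includes 0 (standard error 2.94, limma adjusted p = 0.570). It was -1.74 without Syn 2, -2.19 without Allo 1 and -6.41 by ranks among shared regions. The strongest Ccn1 region lay 12533 bp beyond the gene (region 3, 145633715 to 145634818). It had 93.6, 92.7, 92.2 and 92.3 in Allo 1 to 4, against 90.5, 89.8 and 91.7 in Syn 1 to 3. Each Allo library was above each Syn library, by a mean of 2.06 points (standard error 1.10, limma adjusted p = 0.397, exact permutation p = 0.0286) and of 5.15 by ranks of the fold.

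Near it lay the most negative difference of the 39, at Ccn1 region 2 (145632873 to 145633344), named here after its values were seen. It had 6.67, 28.1, 49.1 and 21.5 in Allo 1 to 4, against 61.7, 45.6 and 39.7 in Syn 1 to 3, and Allo 3 overlapped Syn 2 and Syn 3. The difference of -22.6 points had a standard error of 10.02 (limma adjusted p = 0.302). With single libraries left out it ran between -30.2 and -16.1 points.

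At Ccn2, the region at the lower-coordinate gene end (region 4, 24595286 to 24596056) had 35.2, 36.8, 62.9 and 50.9 in Allo 1 to 4, against 61.8, 41.0 and 53.1 in Syn 1 to 3. This wide spread gave a difference of -5.52 points (standard error 8.42, limma adjusted p = 0.811), which turned to 4.94 without Allo 1 and 2. It was -0.61 without Syn 1, -1.76 without Allo 1, -2.31 without Allo 2, and -11.0 without Allo 3 or without Syn 2. A flanking region 5179 bp beyond the gene (region 7, 24603480 to 24604293) ranked higher than the gene end in each library, at 79.9, 82.4, 86.3 and 84.1 in Allo 1 to 4, against 81.8, 87.5 and 89.6 in Syn 1 to 3. Its difference was -3.12 points (standard error 2.41, limma adjusted p = 0.579). It was -1.45 without Syn 3, -2.04 without Allo 1, -5.38 without Syn 1, -5.37 by ranks among shared regions and -0.17 by ranks of the fold.

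Ankrd1, a YAP target best known from heart muscle, had a single weak region 9557 bp from the gene on chromosome 19 (36129244 to 36129908). Its percentile was 1.04, 11.9 and 6.99 in Allo 1 to 3, with no peak in Allo 4, against 1.66, 27.02 and 1.73 in Syn 1 to 3. The Ankrd1 promoter, which holds a pair of TEAD cores, had no peak in any library.

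Ly6a encodes Sca-1, a surface marker of fetal-like regenerating epithelium that is also made by T cells, endothelial and stromal cells and is inducible by interferon. Of its 4 regions open in all libraries, 2 were higher in each Allo library, where 8.06% of all shared regions were. The other 2 overlapped. The mean percentile was higher in Allo at all 4, where it was at 54.1% of all shared regions. Region 2 turned to -0.75 points by ranks among shared regions. Open regions at Ly6a (chromosome 15, 74994877 to 74998031) numbered 6, 5, 5 and 7 in Allo 1 to 4, against 5, 4 and 4 in Syn 1 to 3 (exact permutation p = 0.171). Ly6a has close copies nearby, and the handling of reads that map to several copies was not given in the sources used here.

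Within the Ly6a gene body, region 4 (74995245 to 74996007) had 40.2, 21.1, 33.3 and 31.9 in Allo 1 to 4, against 16.0, 4.03 and 3.82 in Syn 1 to 3. Mean and SD were 31.6 ± 7.88 over the Allo libraries (n = 4) and 7.95 ± 6.96 over the Syn libraries (n = 3). The difference of 23.7 points (95% interval 5.85 to 41.5) missed the threshold over all regions (limma adjusted p = 0.199, exact permutation p = 0.0571). It was between 20.8 and 27.7 points with libraries left out and 10.8 points by ranks among shared regions (limma adjusted p = 0.290). Ranked by fold in place of −log10 q, it was 0.66 points (standard error 3.38, limma adjusted p = 0.971). The authors' folds themselves overlapped, at 3.36, 2.81, 2.79 and 3.11 in Allo 1 to 4, against 3.10, 2.66 and 2.72 in Syn 1 to 3.

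On both sides of the Ly6a gene, weak peaks were called in Allo libraries alone. Region 3 (74994537 to 74994797), 186 bp below the gene, had 23.6, 24.3 and 43.7 in Allo 1, 2 and 4. Region 5 (74998904 to 74999321), 1027 bp above it, had 6.52, 15.3 and 22.7 in Allo 1, 3 and 4. Below the gene, region 1 (74988714 to 74989816) had 48.1, 34.9, 51.9 and 51.2 in Allo 1 to 4, against 33.0, 41.6 and 0.397 in Syn 1 to 3, where Allo 2 overlapped Syn 2. Its difference of 21.5 points had a standard error of 9.86 (limma adjusted p = 0.318). It was 9.23 points without Syn 3, and 13.1 points by ranks among shared regions.

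By a rule chosen after the values were seen, 5 of the 81 regions were open in at least 3 Allo and no Syn libraries, where 3.31% of all were. They were Ly6a regions 3 and 5, Yap1 region 3, and Tead1 regions 13 and 35. Tead1 region 35 (112919942 to 112920418, 13197 bp above the gene) had 15.4, 17.7 and 24.1 in Allo 2 to 4. Open in all Syn and at most 1 Allo library were 2 regions, where 2.58% of all were. They were Tead1 region 2 and Tead1 region 3 (112660253 to 112660688), which had 12.0 in Allo 4, against 39.3, 32.8 and 21.1 in Syn 1 to 3.

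Farther out, region 7 (75019412 to 75020013), 21736 bp from Ly6a, had the highest mean of the locus over the 7 libraries, though region 2 was above it in Syn 2 and Syn 3. It had 62.6, 68.4, 67.2 and 78.9 in Allo 1 to 4, against 53.6, 57.2 and 54.1 in Syn 1 to 3. Each Allo library was above each Syn library, by a mean of 14.3 points (standard error 5.67, limma adjusted p = 0.249, exact permutation p = 0.0571) and between 10.6 and 18.1 points with libraries left out. In the same gap between genes, the nearest region assigned to the neighbour Ly6c1 (75022082 to 75022986) was Allo-only, at 4.55, 0.545, 37.5 and 0.658 in Allo 1 to 4.

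Markers of other cell types were counted beside these values, among them T, endothelial and stromal cells, which also make Ly6a. The 5 T cell genes, with no gene-end peak anywhere, summed to 2, 4, 6 and 6 regions in Allo 1 to 4, against 3, 4 and 4 in Syn 1 to 3. Pan-leukocyte markers (3 genes) summed to 7, 9, 14 and 9 regions in Allo, against 9, 9 and 9 in Syn; Ptprc lacked a gene-end peak in every library, Coro1a had one in all 7, and Itgb2 had one in Syn 2 and Syn 3. Endothelial markers (4 genes) summed to 19, 29, 32 and 31 in Allo, against 23, 27 and 26 in Syn. Of these, Kdr was open at a gene end in all 7 libraries and Tek in Allo 3, and Pecam1 and Cdh5 in none. Stromal markers (6 genes) summed to 7, 12, 19 and 15 in Allo, against 12, 11 and 13 in Syn, and 5 of the 6, Col3a1 and Pdgfra among them, lacked a gene-end peak in every library, while Col1a1 had one in all 7. Smooth muscle markers (3 genes) summed to 7, 8, 11 and 10 in Allo, against 9, 9 and 9 in Syn. Myh11 was open at a gene end in all 7 libraries, Des in Allo 3, Allo 4 and Syn 2, and Acta2 in Allo 3. The part of such cells in the Ly6a values was not tested, and in sorted pools a change in the mix of cells and a change within cells cannot be told apart.

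Clu encodes clusterin, a secreted chaperone that marks revival stem cells. Its gene-end region (region 1, chromosome 14, 65968271 to 65969220) was among the strongest of each library, with 98.2, 98.7, 99.2 and 97.9 in Allo 1 to 4, against 99.2, 98.5 and 99.6 in Syn 1 to 3. The groups overlapped, with a difference of -0.61 points (standard error 0.62, limma adjusted p = 0.699). A weaker region 747 bp above the gene (region 3, 65982186 to 65982490) had 29.7, 34.2 and 46.3 in Allo 2 to 4 and no peak in Allo 1, against 15.1, 13.1 and 19.6 in Syn 1 to 3.

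Anxa1, on chromosome 19 (20373434 to 20390671), had 0, 2, 4 and 2 regions in Allo 1 to 4, against 2, 2 and 3 in Syn 1 to 3. Within 1 kb of its start site, Syn 3 had a peak over the site itself (region 4, percentile 11.1) and Syn 1 had one 763 bp inside the gene (region 3, percentile 3.35). No Allo library had a peak there. The other regions lay outside the gene, and the highest ranked (region 2, 20345456 to 20345884) had 35.8, 13.99 and 47.6 in Allo 2 to 4, against 40.4 in Syn 2. Region 6 (20434461 to 20434859) had 8.48 and 24.9 in Allo 2 and 3, against 20.6 and 27.4 in Syn 2 and 3, and held the peak farthest from any of the 9 genes, at 44086 bp. The nearest peak beyond 50 kb was 63452 bp from Ankrd1, in a region that stood between 54.1 and 68.4 in Allo and between 43.9 and 61.4 in Syn.

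**Figure D4:**
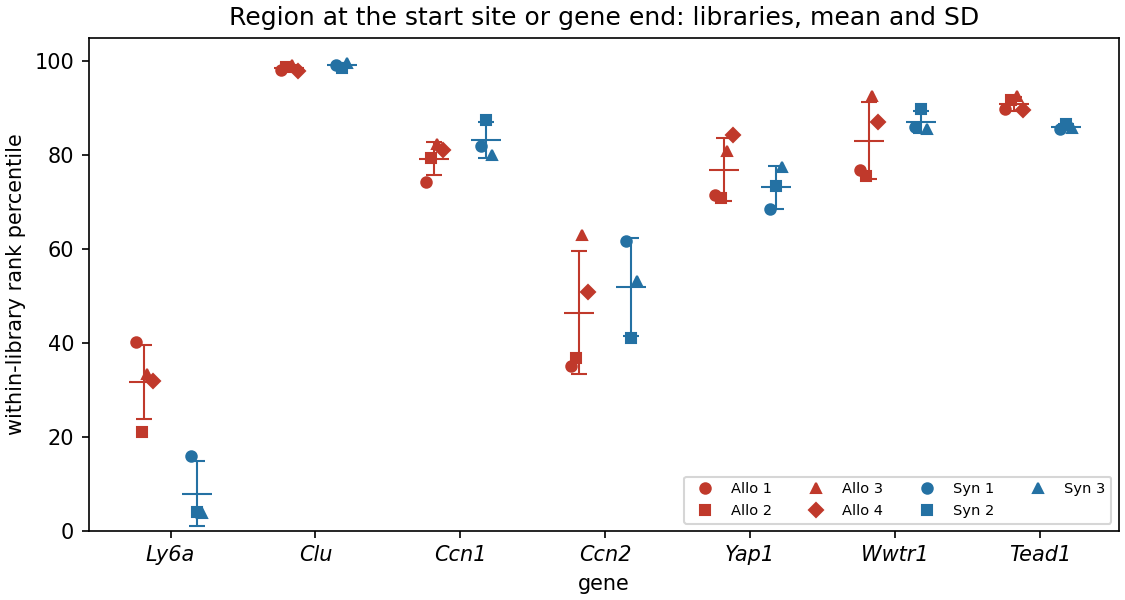
Within-library rank percentile at the start site region (Ccn1, Yap1, Wwtr1) or gene-end region (Ly6a, Clu, Ccn2, Tead1) of 7 genes; points are libraries, bars the mean and SD of Allo (4, left) and Syn (3, right). Allo and Syn points do not overlap at Ly6a and Tead1, and overlap at the other 5 genes.

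Ordered by mean rank percentile over the 7 libraries, a scale of peak strength that is not corrected for width, at these start sites or gene ends, Clu led, followed by Tead1, Wwtr1, Ccn1, Yap1, Ccn2 and Ly6a. In Syn alone, Wwtr1 (87.1) was above Tead1 (86.0). Tead1, Wwtr1 and Ccn1 are neighbours whose ranges over libraries overlap, as are Ccn1 and Yap1. The Ly6a range in Allo of 21.1 to 40.2 touched that of Ccn2, which began at 35.2. For Ly6a, Clu, Ccn2 and Tead1 no start site was at hand, so the gene end used need not be the start site. At Ly6a it was the lower-coordinate end, and region 5, near the other end, had peaks in Allo 1, 3 and 4 alone.

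Summit positions were compared in the same way. Over the 39 regions open in all libraries, the summits of the 7 libraries spanned 9 to 576 bp, with a median of 81 bp. The group means of the summit position, Allo minus Syn, differed by between -111 and 92.2 bp, with no exact permutation p below 0.0857.

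Of 45 further genes of the pathway, 42 had a region, and together they held 299 regions, of which 46.5% were open in all 7 libraries. In all, 1 was Allo-only and 1 was Syn-only (0.334% each), where 1.14% and 1.01% of all merged regions were. Of the shared ones, 7 were higher in each Allo library (5.04%) and 9 lower (6.47%). None passed limma in either direction. Over all shared regions, 8.06% were higher and 6.58% lower in each Allo library, as given above. The Hippo and TEAD genes (19 genes, 84 shared regions) had 1 region higher (1.19%) and 6 lower (7.14%) in each Allo library. The other YAP targets (10 genes, 40 shared regions) had 1 higher (2.5%) and 2 lower (5%), and the fetal-like genes (21 genes, 44 shared regions) had 6 higher (13.6%) and 3 lower (6.82%). Some genes are in more than 1 list.

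Several of these genes had highly ranked peaks at a gene end in both recipient types. Tead4, a close relative of Tead1, had 87.0, 88.6, 89.4 and 91.3 at a gene end in Allo 1 to 4, against 89.8, 91.7 and 86.9 in Syn 1 to 3. Lats2, a kinase that restrains YAP and is itself a YAP target, had 87.4, 91.4, 94.3 and 87.9 in Allo 1 to 4, against 93.2, 90.8 and 89.9 in Syn 1 to 3. Areg, an EGF receptor ligand of repair, had 81.4, 88.5, 91.2 and 95.0 in Allo 1 to 4, against 84.5, 85.5 and 89.5 in Syn 1 to 3. The groups overlapped at each of these 3 gene ends, as they did at Lats1 and Ereg.

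Lats1, the other LATS kinase, had 84.1, 83.8, 80.7 and 74.98 in Allo 1 to 4, against 78.6, 85.9 and 81.4 in Syn 1 to 3. Ereg, another EGF receptor ligand, had 53.5, 41.8, 37.8 and 50.7 in Allo 1 to 4, against 42.5, 47.4 and 34.3 in Syn 1 to 3. The Syn-only region lay in Stk3, the gene of a Hippo kinase, at 26.2, 33.8 and 35.04 in Syn 1 to 3 (chromosome 15, 35010027 to 35010352), and the Allo-only region was that near Ly6c1. Of the other fetal-like genes, Spp1 and Msln had no region in any library. Anxa8 had no region assigned to it, but a peak assigned to another gene lay within 1 kb of an Anxa8 gene end in Allo 2, 3 and 4 and in no Syn library.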

How the data were processed

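ATAC-seq peaks of Allo (4) and Syn (3) libraries were analysed. Per the submitters' processing notes, Trim Galore, Bowtie2, MACS2 and MACS3 were used on build mm10, with no versions, roles or settings; a different peak threshold or read extension would move peak presence and rank. The authors deposited 1 list per library, with a fold over background, a −log10 q-value and a summit for each peak. These are the authors' values and were used to rank and filter within a list. Depth is unknown, and the lowest −log10 q was between 1.30 and 1.42 over the libraries.

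Peaks on chromosomes 1 to 19 and X were assigned to RefSeq genes (GRCm38.p6, 21631 protein-coding, all 9 members found) by summit, merged, and ranked. Regions open in all 7 libraries were compared by limma 3.58.1 (R 4.3.3) with a trend on percentiles, adjusted over all 50324; single values had exact two-sided permutation tests over 35 relabellings. Python 3.11.15, numpy 2.4.6 and pandas 2.3.3 did the rest. The scripts were tested on simulated data. In simulated rank percentiles limma recovered 19 of 100 planted shifts of 15 points and 38 of 100 of 30 points, with 0 false calls. A region that did not pass limma is therefore not shown to be equal between recipient types. Groups come from the titles. The p-values measure the spread between libraries, each from a pool of mice. That spread also holds list length, depth and any difference in peak calling. No lists were copies, the closest pair, Syn 2 and Syn 3, sharing 0.828 of their regions. The Allo libraries did not form 1 group by this measure. Allo 2 shared more with Syn 1 to 3 (0.769, 0.775 and 0.770) than with Allo 1, 3 and 4 (0.749, 0.707 and 0.763). Allo 1 shared more with Syn 1 (0.721) than with Allo 3 (0.655) or Allo 4 (0.714). Allo 3 and Allo 4 shared most with each other (0.787).

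The members and lists were chosen with earlier results of these data known. The regions named are those at start sites or gene ends, the top region of each gene, regions that separated the types, and up to 3 of the largest differences in each direction between groups that do not overlap (3 higher and 2 lower in Allo). Other regions named were chosen after their values were seen. A gene that was also to be named is not reported here. The alternatives tried were a minimum −log10 q of 5, lists of equal length (62977 peaks), peaks covering 50% of a region, windows of 500 bp around summits, ranks among shared regions, a logit scale, ranks of the fold, gene bodies alone, a replicate block and leaving out libraries.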

Additional observations from a re-analysis of the deposited data

Results flagged for a closer look

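Of 27 sets of 4 Allo values at these genes, 2 contained a library at a distance from the rest that chance would give in about 1 set in 20. At Tead1 region 13, the Allo-only region of the gene body, Allo 3 stood highest with a percentile of 25.9, against 9.24 to 9.73 in the other 3. At Ankrd1, Allo 4 stood lowest with 0 regions, against 1 in each of the others, which is the smallest step that a count of regions can take. With 3 equal counts any other count is flagged, so the rate of 1 in 20 does not hold at Ankrd1. Over 27 sets, 2 flags are not far from that rate.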

How the results depend on the processing

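The Allo-only count of 2 was 0 at a −log10 q of at least 5 (1.12% of all regions) and with lists of equal length (1.16%). It was 1 when peaks had to cover 50% of a region (1.11%). Without Allo 1 and 2 it was 7 (6.90% of all), and without Allo 3 and 4 it was 4 (1.75%). With single libraries left out it was 2 to 3 (1.33% to 2.37%). The Syn-only count of 1 was 2 under the same coverage (1.43%) and 3 without Allo 3 and 4 (3.07%). With single libraries left out it was 1 to 2 (1.05% to 1.98%). Regions higher in each Allo library numbered 6, and 17 without Allo 1 and 2 (33.8%). With single libraries left out they numbered 6 to 12 (8.81% to 16.1%). Regions lower in each Allo library numbered 2, 6 without Allo 1 and 2 (13.8%), 12 without Allo 3 and 4 (20.1%), and 2 to 6 with single libraries left out. The count called higher by limma was 0 but 1 with lists of equal length (0.931% of all) and by ranks among shared regions (1.33%), 2 without Allo 1 and 2 (8.68%), and 0 to 1 with single libraries left out; 0 were called lower in every setting run. Of all regions open in every library kept, 33.8% were higher and 13.8% lower in each Allo library without Allo 1 and 2. Without Allo 3 and 4, 11.2% were higher and 20.1% lower. The cause of these changes was not tested.

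Of 253 recomputed differences at 16 named regions, 4 changed sign: Ccn2 region 4 (4.94) and Wwtr1 region 7 (2.82) without Allo 1 and 2, Yap1 region 4 (-1.95) without Allo 3 and 4, and Tead1 region 22 (0.38) by fold. Of 126 recomputed differences in region counts, 14 did. At a −log10 q of at least 5 these were Anxa1 and Tead1 (both 0.083) and Ccn1 (-0.33); with lists of equal length Clu (0.33), Ccn1 (-0.58) and Ccn2 (0.50); without Allo 1 and 2 Anxa1 (0.67) and Tead1 (1.17); without Allo 3 and 4 Ccn1 (-0.83), Ccn2 (0.33) and Wwtr1 (-0.33). With single libraries left out the difference ran from -1 to 0.33 at Anxa1, from -0.33 to 0.67 at Ccn1 and from -3.33 to 0.33 at Tead1.

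The replicate block called 0 of the 39 regions, as without it, and 106 higher and 56 lower over all, against 181 and 51. Deviations of libraries with the same number correlated by 0.0755, -0.0333 and 0.0742 over regions, and not every library correlated best with its own number. Without read counts, weak peaks near the lists' lower limit cannot be told from absence.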
